A study of Homo sapiens with 22 samples.

Results

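The constitutive proteasome subunits are 36 genes, chosen by symbol and not by their values, that encode the standard proteasome of human cells, its activators and its maturation factor POMP. All 36 had a line in each of the 4 deposited tables, which list 17400 gene names for a SMYD3 knockout, 60539 for a SMYD3 siRNA, and 57316 each for a SMYD3 antisense oligonucleotide (ASO) and a UHRF1 siRNA. All 36 also passed the filter on low values in each table. Poly(A)-selected RNA was sequenced from HN-6, a human squamous cell carcinoma line of the head and neck. All 22 libraries came from cells that were treated with interferon-β (1000 U/ml, 24 h) before collection, so every control below carries that treatment too and no group shows untreated cells.

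The libraries fall into 8 groups. The parental HN-6 line (3 libraries) was set against 5-3, a SMYD3 knockout line derived from it (3 libraries). SMYD3 is a lysine methyltransferase. Since 1 knockout line was measured, an effect of losing SMYD3 and a feature of that line cannot be told apart. An siRNA against SMYD3 (3 libraries) was set against a control siRNA (3 libraries), and ASO 081 against SMYD3 (2 libraries) against phosphate-buffered saline, PBS (2 libraries), so the PBS cells received no oligonucleotide. An siRNA against UHRF1 (3 libraries), a protein needed to maintain DNA methylation, was set against control siRNA libraries of its own (3). Knockdown lasted 72 h in these last 3 comparisons. The study calls its replicates biological; the labels used here do not say from which cultures they came, so the p-values measure the spread between these libraries.

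The proteasome is a barrel-shaped protease that degrades proteins tagged with ubiquitin. Its core particle stacks outer alpha rings (PSMA genes), which gate the entry, on inner beta rings (PSMB genes), in which PSMB5, PSMB6 and PSMB7 carry the catalytic sites. A regulatory cap sits on the core: its base holds ATPases that unfold substrates (PSMC genes), the scaffolds PSMD1 and PSMD2 and the ubiquitin receptor PSMD4, and its lid holds further PSMD subunits, including the deubiquitinase PSMD14. Other activators can bind in the cap's place. PSME1 and PSME2 form PA28αβ, which interferons induce, PSME3 forms the nuclear PA28γ, and PSME4 is PA200. Interferons also induce PSMB8, PSMB9 and PSMB10, which replace PSMB5, PSMB6 and PSMB7 in newly built immunoproteasomes and are not among the 36 genes. POMP helps newly made core particles to mature.

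The targeted genes were checked in every library first. SMYD3 stood at 343, 309 and 314 normalized counts in the parental libraries and at 113, 91.5 and 76.3 in the knockout libraries. With the SMYD3 siRNA it stood at 2.61, 2.98 and 2.95 CPM (read counts scaled to 1 common library total, with TMM factors) against 16.6, 13.2 and 15.5 in the controls, and with the ASO at 4.19 and 3.28 against 22.0 and 21.1 CPM. UHRF1 stood at 1.88, 2.69 and 2.10 CPM with its siRNA against 66.4, 63.0 and 64.1. All 4 checks went the way of the labels. UHRF1 also fell with the SMYD3 siRNA (log2 fold change -1.68 ± 0.14, standard error, edgeR adjusted p = 4.24e-07). It rose, however, in the knockout line (0.44) and with the ASO (0.36). SMYD3 fell with the UHRF1 siRNA (-0.57). The libraries held 24783605 to 62921144 reads in genes. Of 10 squamous epithelial markers, 8 to 10 reached 1 CPM in each group.

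Changes below are log2 fold changes of treated against control, each with a standard error. In limma it is that of the fit. For edgeR it was derived from the test, as the size of the change divided by the square root of its F value. A gene is called when its p-value, adjusted by the Benjamini-Hochberg method over all genes tested, is under 0.05. The count tables were tested with edgeR's quasi-likelihood test, and the knockout table, which holds normalized values, with limma on log2(value + 1). In bulk RNA, fewer cells of a type and less RNA per cell cannot be told apart.

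The members' log2 fold changes had a different centre in each comparison. The median was 0.57 in the knockout line, -0.12 with the SMYD3 siRNA, 0.19 with the ASO and -0.37 with the UHRF1 siRNA. Over all genes tested the medians lay between -0.02 and -0.00. In the knockout line the cap genes rose. With the SMYD3 siRNA a few members rose and more fell, with the ASO many rose a little, and with the UHRF1 siRNA most fell but no activator was called lower. Each count is given below with the share of all genes called.

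**Figure D1:**
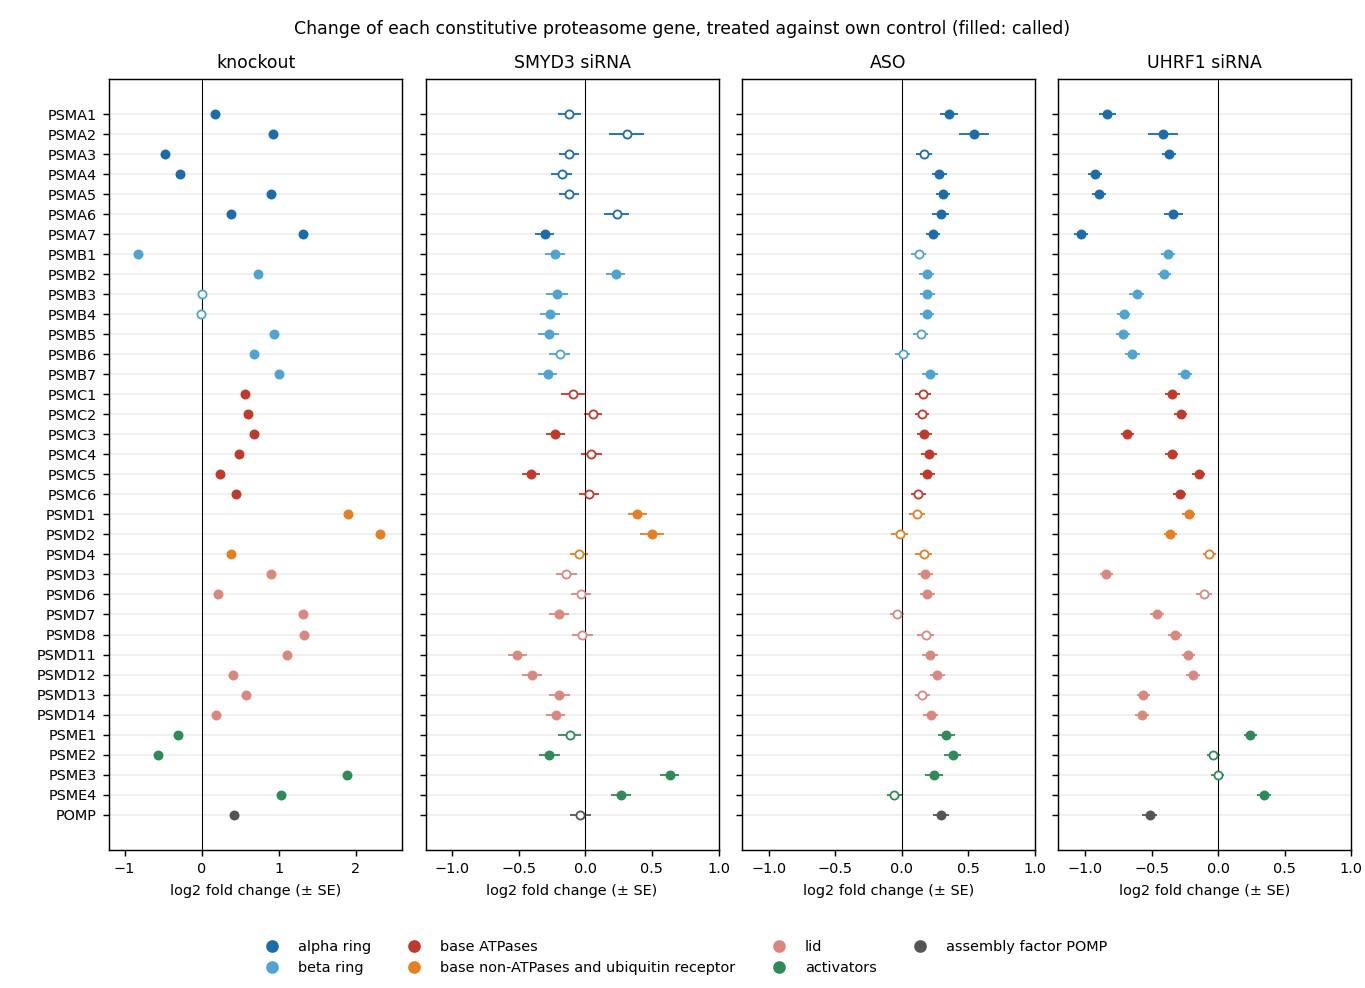
Log2 fold change of each of the 36 members (horizontal axis) in the 4 comparisons, treated against its own control. Lines are the standard error, filled points are called and open points are not. Members lie mostly right of 0 in the knockout and with the ASO and mostly left of 0 with the UHRF1 siRNA.

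Promoter sequences were searched for motifs of factors known to act on proteasome genes. RefSeq promoters (GRCh38.p14), from 250 bases before to 50 after the start of a gene, matched 31 of the 36 members; PSMA7, PSMB1, PSMB6, PSMB7 and PSMD4 were not matched. The antioxidant response element, which NFE2L1 and NFE2L2 bind, was searched as TGACNNNGC on both strands and found in 8 of the 31 members (25.8%), against 13.5% of 27305 promoters. The 8 members were PSMB3, PSMC4, PSMD1, PSMD3, PSMD12, PSME1, PSME2 and PSME4. The interferon-stimulated response element, searched as GAAA, any 2 bases and GAAA again on both strands, was found in PSMA4, PSMB4, PSME1 and PSME2 (12.9% of members against 3.65% of promoters). Further matches were TTCNNNGAA, a gamma-activated sequence, in 5 members (16.1% against 7.94%), CCGGAAG, an ETS site, in 11 (35.5% against 10.6%), and CCAAT in 14 (45.2% against 35.6%), each on both strands. These are counts of letters, not of binding sites.

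The promoters of PSME1 and PSME2 are shown because both hold an antioxidant and an interferon motif and because neither gene was called lower with the UHRF1 siRNA, and that of PSMD3 because it holds the antioxidant motif at 2 places and its gene was among the 4 largest falls there. PSMA4 and PSMB4, which also hold the interferon motif, fell with the UHRF1 siRNA (-0.92 and -0.71). Among members with the antioxidant motif, PSMB3 fell (-0.61) and PSME4 rose (0.34) there. A link between motifs and changes was not tested. Sequences run 5′ to 3′ on the gene's strand, and capitals mark matches to the antioxidant, interferon-stimulated and gamma-activated motifs, which do not overlap one another here.
PSME1, chr14:24135944-24136243, plus strand: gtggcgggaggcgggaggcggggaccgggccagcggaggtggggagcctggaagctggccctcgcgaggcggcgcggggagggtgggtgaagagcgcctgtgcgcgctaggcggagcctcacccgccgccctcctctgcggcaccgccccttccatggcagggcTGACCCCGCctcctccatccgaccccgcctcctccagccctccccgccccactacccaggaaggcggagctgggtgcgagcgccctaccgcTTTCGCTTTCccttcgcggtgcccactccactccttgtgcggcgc
PSME2, chr14:24146561-24146860, minus strand: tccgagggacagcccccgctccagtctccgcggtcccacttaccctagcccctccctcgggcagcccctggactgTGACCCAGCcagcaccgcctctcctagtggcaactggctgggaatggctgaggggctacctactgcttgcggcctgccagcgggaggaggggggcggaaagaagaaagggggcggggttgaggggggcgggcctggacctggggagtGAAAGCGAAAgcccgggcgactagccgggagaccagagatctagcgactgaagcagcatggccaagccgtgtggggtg
PSMD3, chr17:39980557-39980856, plus strand: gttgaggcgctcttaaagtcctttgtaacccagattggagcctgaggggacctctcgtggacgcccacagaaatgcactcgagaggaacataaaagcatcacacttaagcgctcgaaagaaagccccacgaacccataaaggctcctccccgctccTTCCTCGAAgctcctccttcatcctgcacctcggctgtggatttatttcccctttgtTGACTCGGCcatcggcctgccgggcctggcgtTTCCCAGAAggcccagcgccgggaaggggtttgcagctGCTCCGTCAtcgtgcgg
PSME1 and PSME2 lie near each other on opposite strands. The interferon motif begins 5 bases after the start of PSME1 and 28 bases before that of PSME2. The antioxidant motif begins 86 bases before the start of PSME1, 175 before that of PSME2, and 37 before and 33 after that of PSMD3.

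In the knockout line the genes of the regulatory cap rose and those of the core were mixed. All 17 cap genes were called higher, from 0.19 to 2.32, although PSMC5, PSMD6 and PSMD14 were below 0 with upper quartile factors and PSMD14 also with library totals and no factors. The 14 core genes had 9 higher, 3 lower and 2 not called. Of all 16950 genes tested, 42.1% were called higher and 42.5% lower, so 84.6% were called, and 34 members called is a count at a high background. With mitochondrial genes left out, the cap took 0.311% ± 0.00193 (SD, n = 3) of reads in parental and 0.455% ± 0.00496 in knockout libraries, while the core took 0.326% ± 0.00252 and 0.325% ± 0.00863. With upper quartile factors in place of the deposited normalization, 25 members were called higher and 9 lower.

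The largest rises were those of both cap scaffolds and of an activator. PSMD2 stood at 6290, 6123 and 6012 normalized counts in the parental libraries and at 31252, 30235 and 30299 in the knockout libraries (2.32 ± 0.03, limma adjusted p = 8.94e-17). PSMD1 stood at 2169, 2173 and 2261 against 8285, 8299 and 8101 (1.90 ± 0.04, limma adjusted p = 1.99e-15). PSME3, which encodes PA28γ, stood at 3178, 3278 and 3161 against 12006, 11904 and 11688 (1.89 ± 0.03, limma adjusted p = 1.23e-15). Each knockout library lay far above each parental one for these 3 genes. Knockout and parental libraries did not overlap for 34 members, 29 of them lying above and 5 below the parental range. Of all genes 42.7% lay wholly above, 43.1% wholly below and 85.8% either.

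Within the lid, PSMD8 (1.32 ± 0.04), PSMD7 (1.31 ± 0.04) and PSMD11 (1.11 ± 0.03) rose most, and the deubiquitinase PSMD14 least (0.19 ± 0.04). The 6 ATPases rose less than the scaffolds, from 0.24 for PSMC5 to 0.68 for PSMC3. PSMD4, the ubiquitin receptor of the base, rose by 0.38 ± 0.03. PSME4 (PA200) rose by 1.02 ± 0.04. PSMA1, PSMC5, PSMD6 and PSMD14, whose rises were among the smallest, took the opposite sign with upper quartile factors (-0.11, -0.04, -0.07 and -0.09).

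The constitutive catalytic subunits rose in the knockout line. PSMB5, with the chymotrypsin-like site, stood at 3218, 3142 and 3087 normalized counts in the parental and 6015, 5935 and 6180 in the knockout libraries (0.94 ± 0.04, limma adjusted p = 2.48e-12). PSMB6, with the caspase-like site, stood at 4607, 4254 and 4590 against 7198, 6914 and 7363 (0.68 ± 0.04, limma adjusted p = 4.68e-10). PSMB7, with the trypsin-like site, stood at 4081, 4170 and 4089 against 8533, 7976 and 8226 (1.00 ± 0.04, limma adjusted p = 1.08e-12). The groups did not overlap for any of the 3. POMP, the maturation factor, stood at 2495, 2560 and 2475 against 3459, 3322 and 3265 (0.42 ± 0.04, limma adjusted p = 1.25e-07).

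Members of the same ring did not move together. PSMA7 stood at 4475, 4413 and 4547 normalized counts in the parental and 11517, 10580 and 11460 in the knockout libraries (1.32 ± 0.04), followed by PSMA2 (0.92 ± 0.04), PSMA5 (0.90 ± 0.04), PSMA6 (0.38 ± 0.03) and PSMA1 (0.17 ± 0.03). PSMA3 and PSMA4 of the same ring fell, the latter by 0.29 ± 0.04. In the beta ring PSMB2 rose (0.72 ± 0.03), and PSMB3 (-0.00 ± 0.03) and PSMB4 (-0.01 ± 0.03) were not called.

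The 5 members that fell in the knockout line were PSMB1, PSME2, PSMA3, PSME1 and PSMA4. PSMB1, a non-catalytic beta subunit, stood at 8215, 8418 and 8338 normalized counts in the parental and 4658, 4566 and 4841 in the knockout libraries (-0.83 ± 0.04, limma adjusted p = 7.05e-12). PSMA3 stood at 6890, 7109 and 6815 against 5114, 4869 and 4972 (-0.48 ± 0.04, limma adjusted p = 6.03e-09). Among these 5 are both subunits of PA28αβ. PSME2 stood at 16343, 17503 and 17454 against 11968, 11047 and 11735 (-0.56 ± 0.04, limma adjusted p = 1.93e-09), and PSME1 at 10036, 10326 and 10549 against 8630, 8165 and 8294 (-0.30 ± 0.03, limma adjusted p = 9.76e-07). The 4 activators thus split, with PSME3 and PSME4 above and PSME1 and PSME2 below the parental level.

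**Figure D2:**
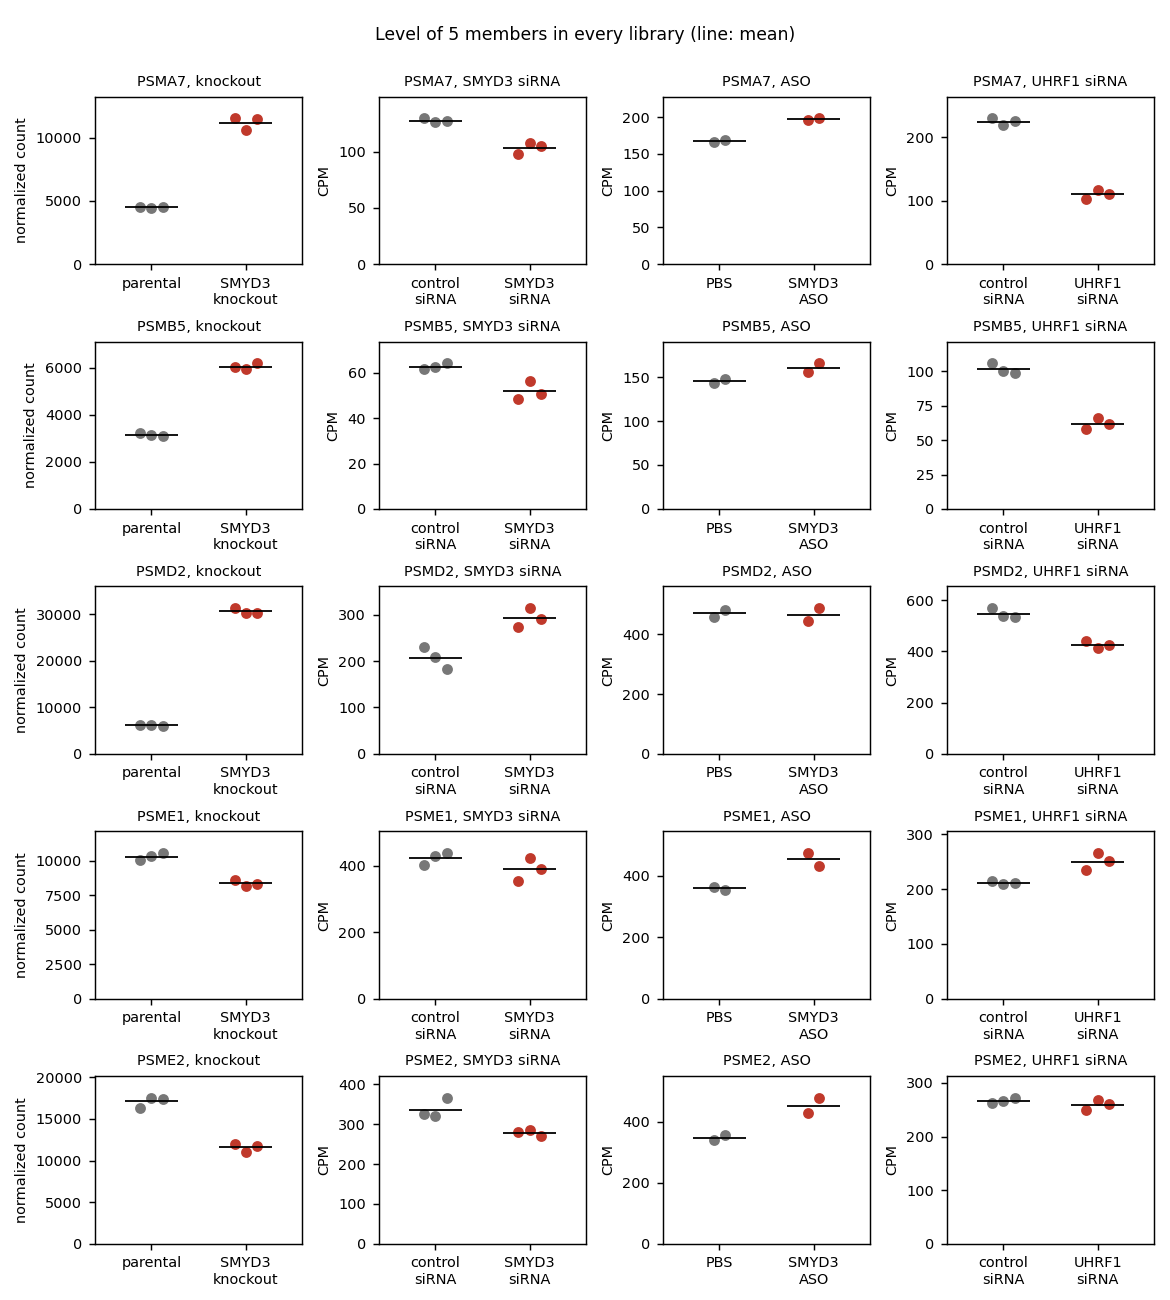
Level of PSMA7, PSMB5, PSMD2, PSME1 and PSME2 in every library of the 4 tables, in normalized counts for the knockout table and CPM for the others; points are libraries and short lines are group means. PSMD2 in the knockout libraries lies between 30235 and 31252, above the parental 6012 to 6290, while PSME2 lies below its parental level.

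Members do not sit in 1 genomic cluster, and the genes around them in the knockout line were compared with them. PSMB1 (GRCh38 chromosome 6, 170535120 to 170553307, minus strand) lies near the end of its chromosome, and its 12 tested neighbours, up to 10 on each side, all had log2 fold changes below 0 (median -0.92, against -0.06 for the chromosome); it was singled out after its values were seen. PSMB7 (chromosome 9, 124353465 to 124415444, minus strand) had 16 of 20 neighbours above 0, with a median of 0.81, and the median of its chromosome was 0.53. For POMP (chromosome 13, 28659104 to 28678959, plus strand) the neighbours' median was 0.14 and that of the chromosome -0.32. These 3 members thus differ in how their surroundings moved. The 3 largest rises had neighbours with much smaller medians. The neighbours' median was -0.01 for PSMD2 (chromosome 3, 184299198 to 184309050, plus strand), -0.01 for PSMD1 (chromosome 2, 231056864 to 231172827, plus strand) and 0.36 for PSME3 (chromosome 17, 42824385 to 42843758, plus strand). PSMB5 and PSMC1, both on chromosome 14, rose among neighbours with medians of -0.49 and -0.84. PSMA6 and PSMC6 of that chromosome rose too (neighbours' medians -0.58 and 0.32). PSMA3, PSME1 and PSME2, which fell, also lie there, with neighbours' medians of -0.04, -0.14 and -0.07. The median of chromosome 14 was -0.35 to -0.36. PSMA4 on chromosome 15, which also fell (-0.29), had neighbours with a median of -0.28. Copy number was not measured, and the part of gene position in these changes was not tested.

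**Figure D3:**
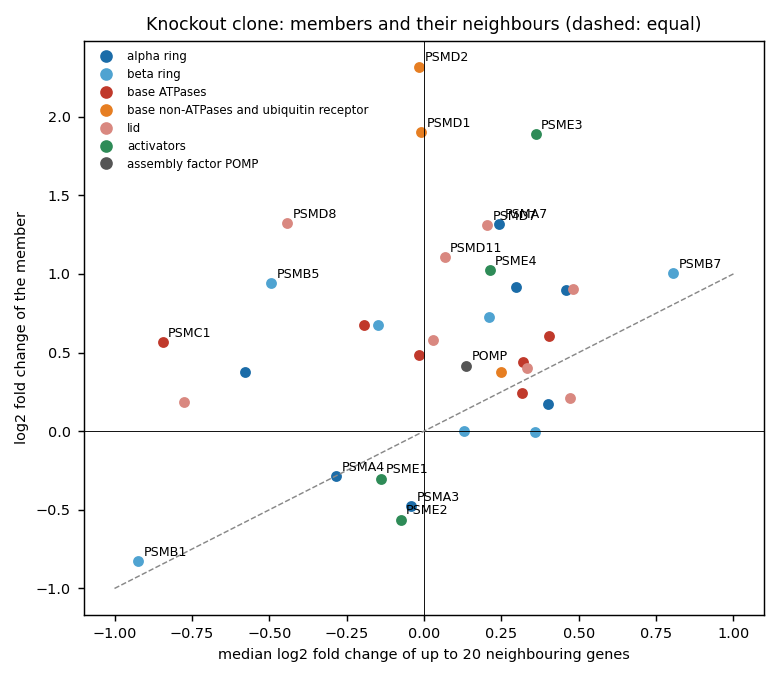
Log2 fold change of each member in the knockout line (vertical axis) against the median log2 fold change of its up to 20 nearest tested genes on the same chromosome (horizontal axis); the dashed line marks equal values. PSMD2, PSMD1 and PSME3 lie far above the dashed line, while PSMB1 and PSMB7 lie close to it.

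Other values moved with the knockout. Mitochondrially encoded genes took 15.3% ± 0.402 (SD, n = 3) of reads in parental and 4.84% ± 0.0345 in knockout libraries. The summed level of 6 leukocyte markers, with no line for PTPRC and CD3E among others, was 44.4 to 46.9 CPM in parental and 309.9 to 326 CPM in knockout libraries, where CD68 (2.98 ± 0.04) and ITGAM (0.52 ± 0.14) rose and CD14 fell (-2.92 ± 0.26). The summed level of 6 fibroblast markers was 59.0 to 63.3 CPM in parental and 15.8 to 17.8 CPM in knockout libraries, with no line for COL1A2, COL3A1 and DCN; the 3 tested fell. The 4 endothelial markers summed to 4.496 to 5.59 and 1.10 to 1.90 CPM, with no line for PECAM1 and KDR, and the 10 squamous markers to 1849 to 1904 and 2802 to 2826 CPM, 7 higher and 1 lower. The part of these in the members' changes was not tested.

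With the SMYD3 siRNA the changes were smaller and went in both directions, 5 members higher, 14 lower and 17 not called. Of all 18982 genes, 24.2% were called higher, 24.4% lower and 48.5% either. The lid had 0 of 8 members higher and 5 lower, and the beta ring 1 of 7 higher and 5 lower. The scaffolds PSMD1 and PSMD2 rose, as did the activators PSME3 and PSME4. With library totals and no scaling factors, 3 members were called higher and 22 lower. The count of falls was 9 without control replicate 3 and 6 without SMYD3 siRNA replicate 3.

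PSME3 rose most, from 133, 129 and 127 CPM in the controls to 192, 208 and 202 (0.63 ± 0.07, edgeR adjusted p = 5.89e-06). PSMD2 stood at 229.9, 209 and 182 CPM against 273, 314 and 292 (0.50 ± 0.09, edgeR adjusted p = 4.32e-04), and PSMD1 at 95.5, 89.8 and 87.9 against 117, 120.2 and 120.5 (0.39 ± 0.07, edgeR adjusted p = 3.36e-04). The groups did not overlap for any of these 3, which are also the 3 largest rises in the knockout line. Over all members 6 lay wholly above and 21 wholly below their controls, against 27.8% and 29.0% of all genes (56.8% either). PSME4 (0.27 ± 0.07) and PSMB2, a beta subunit (0.23 ± 0.07), completed the rises.

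The 3 largest falls were in the cap. PSMD11, a lid subunit, stood at 188, 190.3 and 192 CPM in the controls and 133, 129 and 138 with the siRNA (-0.51 ± 0.07, edgeR adjusted p = 3.45e-05). PSMC5, an ATPase, stood at 129.8, 129 and 139 against 101, 99.5 and 99.5 (-0.41 ± 0.07, edgeR adjusted p = 2.20e-04). PSMD12, another lid subunit, stood at 95.6, 89.3 and 101 against 76.0, 67.1 and 73.5 (-0.40 ± 0.08, edgeR adjusted p = 6.05e-04). All 3 siRNA libraries lay below all 3 controls for each. In the knockout line PSMD11, PSMC5 and PSMD12 were higher (1.11, 0.24 and 0.40).

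In the core, PSMA7 stood at 129, 126 and 127 CPM against 97.5, 107 and 105 (-0.31 ± 0.07, edgeR adjusted p = 0.00248). Among the catalytic subunits, PSMB5 stood at 61.8, 62.5 and 64.2 against 48.6, 56.4 and 50.6 (-0.28 ± 0.08, edgeR adjusted p = 0.00781), and PSMB7 at 55.0, 58.5 and 58.0 against 46.5, 48.0 and 46.5 (-0.28 ± 0.07, edgeR adjusted p = 0.00412). Both fell by about the same amount. PSMB6 stood at 139.5, 136 and 136 against 108, 131 and 122 and was not called (-0.19 ± 0.08, edgeR adjusted p = 0.0586). The other core falls were PSMB4 (-0.27 ± 0.07), PSMB1 (-0.23 ± 0.07) and PSMB3 (-0.21 ± 0.08). POMP was not called (-0.04 ± 0.08).

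The subunits of PA28αβ differed in their calls but not visibly in direction. PSME2 stood at 325, 319.5 and 366 CPM in the controls and 280, 285 and 272 with the siRNA (-0.27 ± 0.08, edgeR adjusted p = 0.0114), without overlap. PSME1 stood at 401, 428 and 437 against 354, 422 and 389, with overlap, and was not called (-0.12 ± 0.09, edgeR adjusted p = 0.269). Whether these 2 changes differ was not tested. Mitochondrially encoded genes took 8.07% ± 1.91 of reads in the controls and 6.15% ± 0.555 with the siRNA (SD, n = 3 each), and the 6 fibroblast markers summed to 135 to 158 CPM in the controls, with COL1A2 at 0, and to 221 to 263 CPM with the siRNA, where 4 of 5 tested rose. The 4 endothelial markers summed to 12.4 to 14.7 and 7.11 to 7.50 CPM (1 higher and 1 lower of 3 tested, KDR at 0 with the siRNA), the 6 leukocyte markers to 12.8 to 14.4 and 14.8 to 17.8 CPM (1 higher and 1 lower of 4 tested), and the 10 squamous markers to 2061 to 2205 and 2514 to 2870 CPM (4 higher and 2 lower). Their part in the members' changes was not tested.

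With the ASO the members that changed rose by small amounts. Of the 36, 22 were called higher, 0 lower and 14 not called, and no member was called lower by DESeq2 or at an unadjusted p under 0.05 either. Of all 18233 genes, 11.3% were called higher, 10.3% lower and 21.7% either. The alpha ring had 6 of 7 members higher, the beta ring 4 of 7, the ATPases 3 of 6, the lid 5 of 8 and the activators 3 of 4, while none of PSMD1, PSMD2 and PSMD4 was called. The count of rises was 10 with library totals and no scaling factors, where 1338 of all genes were called higher against 2068. Fewer members were called when PBS replicate 1 or ASO replicate 2 was left out, each leaving 1 library in a group.

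PSMA2 rose most, from 6.998 and 6.37 CPM in the PBS libraries to 9.35 and 10.2 with the ASO (0.54 ± 0.11, edgeR adjusted p = 0.00450), at a low level that is returned to below. PSMA1, of the same alpha ring, stood at 43.1 and 46.5 against 59.9 and 54.7 (0.35 ± 0.07, edgeR adjusted p = 0.00251). Both subunits of PA28αβ rose. PSME2 stood at 339 and 355 against 428 and 477 (0.38 ± 0.06, edgeR adjusted p = 0.00124), and PSME1 at 365 and 353 against 473 and 433 (0.34 ± 0.06, edgeR adjusted p = 0.00218). Both ASO libraries lay above both PBS libraries for these 4 genes. That held for 32 members, and 1, the lid subunit PSMD7, lay wholly below; of all genes 30.5% lay wholly above, 31.2% wholly below and 61.7% either.

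Among the catalytic subunits, PSMB7 rose, from 93.6 and 99.9 to 109 and 115 CPM (0.21 ± 0.06, edgeR adjusted p = 0.0229). PSMB5 stood at 143 and 148 against 156 and 166 and was not called (0.14 ± 0.06, edgeR adjusted p = 0.0976). PSMB6 stood at 205 and 201 against 204 and 204, inside the PBS range (0.01 ± 0.05, edgeR adjusted p = 0.957). The scaffold PSMD2, which had the largest rise in the knockout line, stood at 458 and 482 CPM with PBS and 443 and 487 with the ASO (-0.02 ± 0.06). POMP stood at 71.7 and 76.3 against 90.9 and 90.7 (0.29 ± 0.06, edgeR adjusted p = 0.00297).

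Marker sums with PBS and with the ASO were 119 to 121 and 94.8 to 112 CPM for 6 fibroblast markers (0 higher and 2 lower of 3 tested), and 6.77 to 8.13 and 8.24 to 8.93 CPM for 6 leukocyte markers (1 higher and 1 lower of 4 tested, CD3E at 0). They were 8.96 to 9.26 and 9.18 to 9.28 CPM for 4 endothelial markers (none of 3 tested called, KDR at 0 with PBS), and 2804 to 2946 and 3064 to 3136 CPM for 10 squamous markers (3 higher and 1 lower). Their part in the members' changes was not tested.

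With the UHRF1 siRNA both rings, POMP and most of the cap fell. All 14 core members were lower (median -0.63), as were 15 of 17 cap members (median -0.32). Of all 18349 genes, 32.0% were called higher, 32.7% lower and 64.7% either. The core took 0.180% ± 0.00419 (SD, n = 3) of reads in the controls and 0.110% ± 0.00716 with the siRNA, and the cap 0.272% ± 0.00853 and 0.199% ± 0.00327. The 4 activators together took 0.0830% ± 0.00158 and 0.0859% ± 0.00272.

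The 3 largest falls were in the alpha ring. PSMA7 stood at 229, 219 and 225 CPM in the controls and 103, 117 and 109.9 with the siRNA (-1.03 ± 0.05, edgeR adjusted p = 1.37e-24). PSMA4 stood at 160.4, 155 and 166 against 80.2, 86.9 and 86.6 (-0.92 ± 0.05, edgeR adjusted p = 1.08e-22), and PSMA5 at 175, 183 and 189 against 90.3, 106 and 98.2 (-0.90 ± 0.05, edgeR adjusted p = 3.94e-21). None of these siRNA libraries reached the lowest control. Over all members 30 lay wholly below and 2 wholly above their controls, against 34.6% and 33.5% of all genes (68.1% either).

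The catalytic subunits fell to unequal extents. PSMB5 stood at 106, 100.1 and 98.8 CPM against 57.8, 66.0 and 61.7 (-0.72 ± 0.05, edgeR adjusted p = 1.95e-17). PSMB6 stood at 115, 100.2 and 104 against 65.0, 70.5 and 68.6 (-0.64 ± 0.05, edgeR adjusted p = 1.23e-15). PSMB7 stood at 97.7, 101 and 97.7 against 78.6, 84.6 and 86.8 (-0.25 ± 0.05, edgeR adjusted p = 2.70e-05). The groups did not overlap for any of the 3; differences between these genes' changes were not tested. POMP stood at 64.4, 60.2 and 65.4 against 40.0, 46.6 and 46.4 (-0.51 ± 0.06, edgeR adjusted p = 3.39e-11).

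In the cap the falls ran from -0.84 for the lid subunit PSMD3, whose promoter is shown above, to -0.15 for the ATPase PSMC5. PSMC3 (-0.68 ± 0.05), PSMD14 (-0.57 ± 0.05) and PSMD13 (-0.56 ± 0.05) came next to PSMD3. The scaffolds fell less, PSMD2 by 0.36 ± 0.05 and PSMD1 by 0.22 ± 0.05. PSMD4 (-0.07 ± 0.05, edgeR adjusted p = 0.239) and PSMD6 (-0.11 ± 0.06, edgeR adjusted p = 0.111) were the cap members not called.

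None of the 4 activators was called lower with the UHRF1 siRNA, although PSME2 was with library totals and no factors (-0.108, edgeR adjusted p = 0.0434). PSME4 stood at 134, 146 and 151 CPM against 193, 177 and 178 (0.34 ± 0.05, edgeR adjusted p = 4.91e-08), and PSME1 at 215, 209 and 212 against 234, 265 and 251 (0.24 ± 0.05, edgeR adjusted p = 2.58e-05). Both rose without overlap. PSME2 stood at 262, 266 and 272 against 249, 268 and 261 (-0.04 ± 0.05, edgeR adjusted p = 0.521) and PSME3 at 198, 181 and 188 against 182, 191 and 191 (-0.01 ± 0.05, edgeR adjusted p = 0.935). The libraries of the 2 groups overlapped for both of these. Marker sums moved in this comparison too: the 6 fibroblast markers summed to 119 to 119.7 CPM in the controls and 504 to 578 CPM with the siRNA, where DCN was at 0; of the 3 tested, COL1A1 rose (2.62 ± 0.05), PDGFRB fell (-1.19 ± 0.08) and LUM was not called (-0.03 ± 0.08). The 6 leukocyte markers summed to 3.90 to 4.81 and 11.1 to 12.6 CPM, with CD3E at 0 and 2 of 3 tested higher. The 4 endothelial markers summed to 8.12 to 8.93 and 22.6 to 23.8 CPM, with KDR at 0 and 2 of 3 tested higher, and the 10 squamous markers to 4409 to 4575 and 4965 to 5243 CPM, 3 higher and 4 lower. Their part in the members' changes was not tested.

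**Figure D4:**
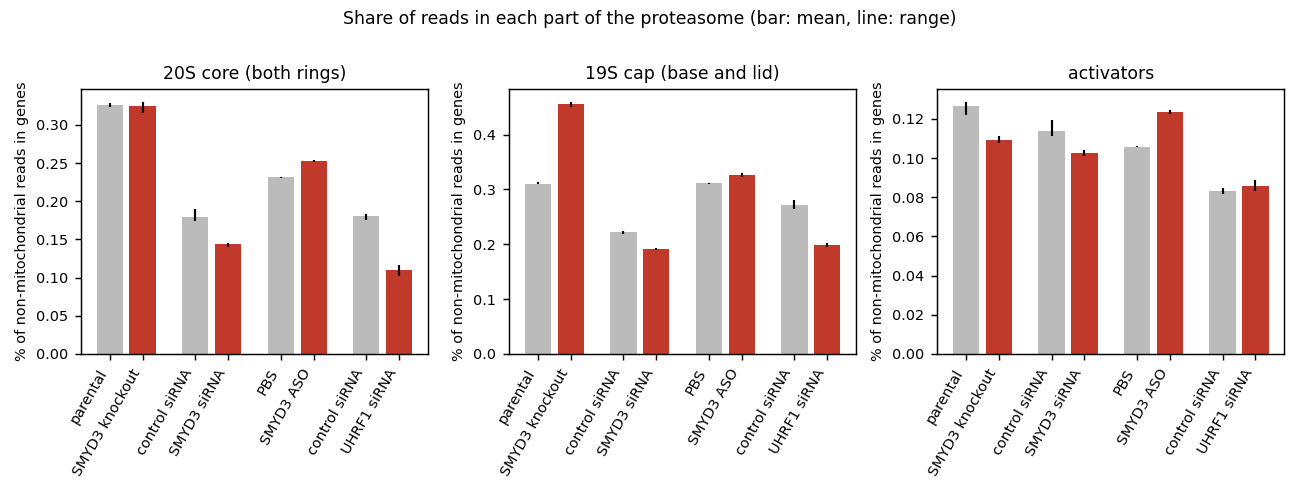
Share of reads, in percent of reads outside mitochondrial genes, taken by the core, the cap and the activators in each group of the 4 tables; bars are group means and lines run from the lowest to the highest library. With the UHRF1 siRNA the bars of core and cap are lower than in its controls, while all its activator values lie between 0.0815 and 0.0886%.

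The differences between comparisons were tested on the 16 libraries of the 3 count tables, each with its own controls. The knockout table was normalized separately and took no part. The SMYD3 siRNA and the ASO lower the same RNA, and the members' responses to them differed: 4 members were higher and 20 lower with the siRNA than with the ASO, relative to their own controls, against 18.6% and 19.3% of all 17457 genes (37.9% either). The median difference was -0.32. For 10 members the calls were opposite and the difference was called too: PSMA7, PSMB3, PSMB4, PSMB7, PSMC3, PSMC5, PSMD11, PSMD12, PSMD14 and PSME2 fell with the siRNA and rose with the ASO. How many of all genes met both conditions was not counted, so this count has no background beside it. PSMD11 had the largest such difference (-0.72 ± 0.09, edgeR adjusted p = 4.34e-07), followed by PSMD12 (-0.66 ± 0.10) and PSME2 (-0.65 ± 0.10). PSMD2 (0.52 ± 0.11), PSME3 (0.40 ± 0.09), PSME4 (0.33 ± 0.10) and PSMD1 (0.28 ± 0.09) were the members higher with the siRNA. These 4 became 2 without ASO replicate 1. The controls differed as well, a control siRNA in the one and PBS in the other.

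Between the UHRF1 siRNA and the ASO, 1 member was higher and 34 lower with the UHRF1 siRNA, against 25.1% and 26.6% of all genes, 51.7% either (median -0.51). The exceptions were PSME4, which was higher (0.41 ± 0.10), and PSME1, which was not called (-0.08 ± 0.11). For 18 members the calls were opposite. The share of all genes with opposite calls was not counted, for this pair or the next. Between the siRNAs against SMYD3 and UHRF1, 26 members were higher and 5 lower with the SMYD3 siRNA, against 28.0% and 26.8% of all genes, 54.7% either (median 0.38). PSMB2, PSMD1 and PSMD2 had opposite calls, each rising with the SMYD3 siRNA and falling with the UHRF1 siRNA, and PSMD2 differed by 0.86 ± 0.10. The count of 5 lower became 3 without control replicate 3 or SMYD3 siRNA replicate 3 of that comparison, and 3 without UHRF1 siRNA replicate 2. Between the knockout and the SMYD3 siRNA, which have separate controls, 17 of 36 members had the same sign. Shares of all genes were not counted for this or for the calls in both comparisons that follow. Alone, the 2 comparisons called 84.6% and 48.5% of all genes. PSMD1, PSMD2 and PSME3, called higher in both, were singled out after their values were seen. PSMB2 and PSME4 were called higher in both too, and PSMB1 and PSME2 lower in both. PSMA7, PSMB5, PSMB7, PSMC3, PSMC5, PSMD7, PSMD11, PSMD12, PSMD13 and PSMD14 were called higher in the knockout and lower with the siRNA.

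Immunoproteasome subunits were set against the constitutive subunits they replace, as a ratio of levels per kilobase in each library. An exact permutation test on log2 ratios cannot go below p = 0.1 with 3 against 3 libraries or below 0.333 with 2 against 2, so none of the 12 ratios could pass 0.05, and adjusted values ran from 0.15 to 0.5. In the knockout line PSMB8 to PSMB5 was 0.462 ± 0.0139 against 0.866 ± 0.0597 in the parental libraries (SD, n = 3), and PSMB10 to PSMB7 was 0.183 ± 0.00304 against 0.627 ± 0.0390 (exact p = 0.1 each). Both ratios were lower in every knockout library than in any parental one. PSMB8 itself was not called in the knockout line (0.03 ± 0.04), while PSMB5 rose; PSMB10 fell (-0.78 ± 0.05) as PSMB7 rose. PSMB9 to PSMB6 was 0.244 ± 0.00270 against 0.277 ± 0.0245 (exact p = 0.1).

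All 3 ratios were higher with the UHRF1 siRNA in every library (exact p = 0.1 each). PSMB8 to PSMB5 was 1.08 ± 0.0567 against 0.742 ± 0.0266, PSMB9 to PSMB6 0.854 ± 0.00573 against 0.491 ± 0.0164 and PSMB10 to PSMB7 0.234 ± 0.00457 against 0.135 ± 0.0110. PSMB8 itself fell (-0.17 ± 0.05), by less than PSMB5 did, while PSMB9 (0.16 ± 0.05) and PSMB10 (0.55 ± 0.08) rose. With the ASO they were 0.819 ± 0.0475 against 0.626 ± 0.0180, 0.441 ± 0.000575 against 0.309 ± 0.00280 and 0.288 ± 0.0398 against 0.236 ± 0.0102 in the same order (n = 2, exact p = 0.333 each). There the immunoproteasome genes rose by 0.53, 0.52 and 0.50. With the SMYD3 siRNA PSMB8 to PSMB5 was lower (1.70 ± 0.0959 against 1.88 ± 0.0139) and PSMB9 to PSMB6 higher (0.658 ± 0.0693 against 0.590 ± 0.0340; exact p = 0.1 each), and PSMB10 to PSMB7 overlapped (0.887 ± 0.0893 against 0.946 ± 0.0767, exact p = 0.5).

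**Figure D5:**
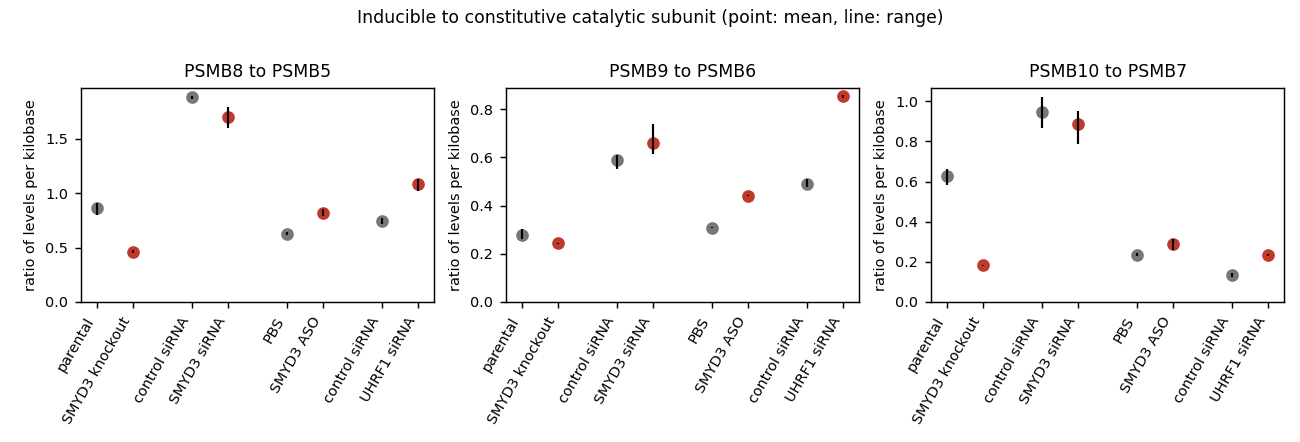
Ratio of each immunoproteasome catalytic subunit to the constitutive subunit it replaces, per kilobase, in each group; points are group means and lines run from the lowest to the highest library. The knockout libraries lie below the parental ones, and the UHRF1 siRNA and ASO libraries above their controls, for all 3 ratios.

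Genes around the proteasome were counted from lists kept apart from the members. Beside them, the shares of all genes called higher and lower were 42.1% and 42.5% in the knockout line, 24.2% and 24.4% with the SMYD3 siRNA, 11.3% and 10.3% with the ASO, and 32.0% and 32.7% with the UHRF1 siRNA. Of 8 assembly chaperones, which hold half-built rings and bases together, 3 were higher and 3 lower in the knockout line, 0 and 4 with the SMYD3 siRNA, 4 and 0 with the ASO, and 0 and 6 with the UHRF1 siRNA. PSMG1, PSMG2, PSMG3 and PSMG4, which build the alpha ring, rose with the ASO (0.32, 0.27, 0.23 and 0.28) and fell with the UHRF1 siRNA (-0.57, -0.49, -1.19 and -0.59). PSMD10, a chaperone of the base, fell by 0.83 ± 0.09 with the SMYD3 siRNA. Of 10 other proteasome-bound proteins, 6 were higher and 3 lower in the knockout line, 3 and 2 with the SMYD3 siRNA, 4 and 0 with the ASO, and 1 and 6 with the UHRF1 siRNA. UBE3C, a ubiquitin ligase bound to the proteasome, rose in the knockout line (1.51 ± 0.04) and with the SMYD3 siRNA (0.52 ± 0.07), and UCHL5, a deubiquitinase of the cap, fell with the UHRF1 siRNA (-0.998 ± 0.06).

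NFE2L1 (NRF1) is the factor that raises proteasome genes when proteasome activity is short, and DDI2, NGLY1 and VCP help to release and activate it. Of 9 genes of this axis, 7 were higher and 1 lower in the knockout line, 4 and 1 with the SMYD3 siRNA, 1 and 1 with the ASO, and 4 and 1 with the UHRF1 siRNA, against 84.6%, 48.5%, 21.7% and 64.7% of all genes called in either direction. NFE2L1 itself rose in the knockout line (1.40 ± 0.03) and with the SMYD3 siRNA (0.31 ± 0.09), and was not called with the UHRF1 siRNA (-0.03 ± 0.05). UBA1, the main ubiquitin-activating enzyme, rose in the knockout line (1.196 ± 0.04), with the SMYD3 siRNA (0.25 ± 0.09) and with the UHRF1 siRNA (0.65 ± 0.05), and was not called with the ASO (-0.12 ± 0.06). The tissue-specific subunits PSMA8 and PSMB11 did not pass the filter on low values.

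The members' levels in control cells, per kilobase of merged exons, spanned a wide range. Exon lengths given in the ASO table were used for all 4 tables. They run from 1168 bases for PSMB3 to 10392 for PSME4 and can exceed the length of the RNA. The order of the members therefore depends on these lengths too. In the PBS libraries PSMB3, a beta subunit, stood at 230 ± 6.31 CPM per kilobase (SD, n = 2) and PSME1 at 202 ± 4.58. In the controls of the SMYD3 siRNA PSME1 came first with 238 ± 10.6 and PSMB3 next with 153 ± 5.85 (n = 3). PSMA7 (128 ± 2.91), PSMB3 (121 ± 4.51) and PSME1 (119 ± 1.67) led the controls of the UHRF1 siRNA, where PSMB3 and PSME1 do not differ beyond their spread. In the parental cells PSMB3 led with 8603 ± 37.5 normalized counts per kilobase, before PSME1 (5802 ± 145) and PSME2 (4774 ± 183), and PSME4 came last (234 ± 4.13). Across the 36 members, log2 CPM in the controls correlated with Pearson's r of 0.91 to 0.95 among the 3 count tables. With the knockout table r was 0.38 to 0.46. Spearman's rho, on ranks, was 0.86 to 0.92 and 0.54 to 0.66 in the same order. These values describe genes of shared libraries and include PSMA1, PSMA2 and PSMA6, whose uncertain levels follow.

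PSMA2, PSMA6 and PSMA1, all of the alpha ring, stood far lower in the count tables than in the knockout table. On library totals without factors, PSMA2 took 121 CPM in the parental libraries, but 6.75, 6.84 and 7.21 in the control siRNA libraries of the SMYD3 comparison, the PBS libraries and the control siRNA libraries of the UHRF1 comparison. PSMA6 took 147 against 13.2, 29.4 and 21.0, and PSMA1 took 224 against 20.9, 45.8 and 50.9. Each shares exons on its own strand with another annotated gene, AC010132.3, AL121594.1 and AC018523.2 in the same order. None of those names was found in the knockout or the SMYD3 siRNA table. The search was by name only. The SMYD3 siRNA table gives many genes no symbol but an Ensembl identifier, so the overlapping genes could stand there unrecognized. They took 0 to 0.274 CPM in the groups of the other 2 tables. PSME2 shares exons on its own strand too, with MIR7703. It took 554 CPM in the parental libraries against 352, 355 and 273 in the controls of the count tables, a smaller gap. Counting could leave out or split reads in shared exons, so the levels and changes of PSMA2, PSMA6 and PSMA1 in the count tables are uncertain. Exons of 11 members overlap a gene on the opposite strand, such as BECN1 for PSME3 and HTR2B for PSMD1, and whether the counting used the strand is not given in the sources used here. Reads in named pseudogenes came to at most 6.21% of those of the parent member, for PSMC1 in the SMYD3 siRNA table.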

How the data were processed

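RNA from 22 libraries of interferon-treated HN-6 cells was read from 4 deposited tables. The authors deposited raw counts per gene for both siRNAs and the ASO, and the knockout table holds a deposited signal, counts divided by 1 factor per library, from which whole reads were recovered for 100% of values within 0.01. Per the submitters' processing notes, bcl2fastq, Bowtie and hg38 were used; no source used here names the counting program, its annotation or its strand setting. Per the labels' protocols, libraries were stranded and poly(A)-selected. Reads in genes ranged from 24783605 to 47702859 in the knockout table, 32441991 to 54121262 in the SMYD3 siRNA table, 30792923 to 32045158 in the ASO table and 57588142 to 62921144 in the UHRF1 siRNA table. The SMYD3 siRNA table has 23588 lines without a symbol (0.849 to 0.917% of reads). They were kept under their Ensembl identifiers in the filter, test and library sizes of that comparison. The contrast over the count libraries used only names shared by the 3 count tables. Genes encoded in mitochondria are listed at 0 in the ASO and UHRF1 siRNA tables. Of the symbols of the knockout, 24 had been turned into dates.

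Counts were tested with edgeR 4.0.16 (filterByExpr, TMM factors, robust quasi-likelihood F-test) and knockout values with limma 3.58.1 (trend, robust) on log2(value + 1), keeping genes at 10 or more in 3 or more libraries; R was 4.3.3. All tests were two-sided, within a table, with Benjamini-Hochberg adjustment over all genes. Each treated group was compared with its own control, and differences of changes were tested by a contrast over the 16 count libraries. The script was tested on simulated data. Alternatives were DESeq2 1.42.0, upper quartile factors, other filters, a pseudocount of 5, each replicate left out, a replicate block, and library totals without factors, the last chosen after seeing the data. The members and lists were chosen with earlier results of these data known. Genes given by library are the 3 largest called rises and falls of each comparison, PSME1, PSME2, PSMB5, PSMB6 and PSMB7, with POMP in the knockout; others given so were chosen after their values were seen. Replicates of 1 group differed by more than sampling noise. The main tests did not treat equal replicate numbers as pairs, and the labels used here do not say whether they are. Some genes of the lists are not reported here.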

Additional observations from a re-analysis of the deposited data

Results flagged for a closer look

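The SMYD3 siRNA and the ASO lower the same RNA, and for 24 of the 36 members the log2 fold changes differed between them by a test of the difference itself (edgeR contrast over the count libraries, adjusted p under 0.05 over all 17457 genes, of which 37.9% passed, 18.6% higher and 19.3% lower). In 20 members the siRNA value was the lower one. In the alpha ring the differences, siRNA minus ASO, were -0.47 for PSMA1, -0.29 for PSMA3, -0.45 for PSMA4, -0.43 for PSMA5 and -0.54 for PSMA7. In the beta ring they were -0.35 for PSMB1, -0.40 for PSMB3, -0.45 for PSMB4, -0.41 for PSMB5 and -0.49 for PSMB7. The ATPases PSMC3 (-0.39) and PSMC5 (-0.59) and the lid subunits PSMD3 (-0.31), PSMD11 (-0.72), PSMD12 (-0.66), PSMD13 (-0.34) and PSMD14 (-0.43) were lower with the siRNA too, as were PSME1 (-0.45), PSME2 (-0.65) and POMP (-0.33). The 4 members higher with the siRNA were the scaffolds PSMD1 (0.28) and PSMD2 (0.52) and the activators PSME3 (0.40) and PSME4 (0.33).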

How the results depend on the processing

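In the knockout line 30 of 34 called members kept their call and direction in 15 alternatives, with the siRNA against SMYD3 8 of 19 in 13, with the ASO 9 of 22 in 10, and with the siRNA against UHRF1 32 of 32 in 12. Upper quartile factors moved the median of all genes in the knockout to -0.31, gave 9 members lower and turned PSMA1 (-0.107), PSMC5 (-0.036), PSMD6 (-0.068) and PSMD14 (-0.093); library totals without factors turned PSMA1 (-0.026) and PSMD14 (-0.012). Library totals without factors moved the median of all genes. It was then -0.22 in the knockout, -0.15 with the SMYD3 siRNA, -0.07 with the ASO and -0.085 with the UHRF1 siRNA. This setting gave 3 members higher and 22 lower with the SMYD3 siRNA and 10 higher with the ASO. The members' medians were then 0.38, -0.25, 0.12 and -0.44. The cause was not tested.

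Leaving out each replicate gave 29 members higher and 5 lower in the knockout each time, 4 to 6 higher and 6 to 11 lower with the SMYD3 siRNA, 11 to 22 higher and 0 lower with the ASO, and 2 higher and 30 to 31 lower with the UHRF1 siRNA. For the siRNA against SMYD3 minus the ASO it gave 2 to 4 higher and 18 to 21 lower, for the UHRF1 siRNA minus the ASO 1 higher and 31 to 34 lower, and for the SMYD3 siRNA minus the UHRF1 siRNA 24 to 26 higher and 3 to 5 lower. Where an arm kept 1 library, that library was assumed to vary like the other group. Shares of all genes called with a replicate left out are not given here. Fewer calls over all genes and a change in the members therefore cannot be told apart from these counts.

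With the replicate block, 29 members were higher and 5 lower in the knockout, 5 and 15 with the SMYD3 siRNA, 32 and 0 with the ASO, and 2 and 30 with the UHRF1 siRNA. Whether equal replicate numbers mark paired libraries is not given in the labels used here. The correlations of same-numbered libraries ran from -0.05 to 0.33, and those of differently numbered ones from -0.42 to 0.24. With the ASO they were 0.23 and -0.23, mirror values that 2 libraries per group give by construction. Over all genes, the block raised the ASO calls from 2068 higher and 1880 lower to 3477 and 3296, DESeq2 gave 1308 and 962 there, and library totals without factors gave 1338 and 2999. They gave 3112 and 6447 with the SMYD3 siRNA against 4585 and 4625, and upper quartile factors 5386 and 9117 in the knockout against 7136 and 7211. Leaving out gene lengths changes the level of the catalytic ratios, but by construction not their log2 differences or p-values.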
